A study of Mus musculus with 6 samples.

Results

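The genes described here are the 52 genes of the DNA replication licensing and synthesis machinery, taken by name as 52 of the 25239 genes listed for this mouse cortex experiment. They were chosen by function, with earlier results of these data known. They are the subunits of the origin recognition complex and of the MCM helicase, the licensing factors, the helicase activators, the replicative polymerases with their clamp and clamp loader, single-strand binding and Okazaki fragment enzymes, enzymes of deoxynucleotide supply, replication-coupled chromatin factors and the E-type cyclins. All 52 were measured, and all are among the 18446 genes with a fold change.

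The experiment used C57BL/6J mouse embryos given an in utero electroporation at E13.5, and polyadenylated RNA of the transfected cortex was collected at E15.5. In 3 libraries, Breasi-CRISPR was used to insert the Thr280Ala variant of Ccnd2, which encodes the D-type cyclin D2, and the labels call this group MPPH. The other 3 libraries received GFP only and are labelled wild type. No group edited without the variant is among the samples, so the variant and the editing cannot be told apart. The labels give no embryo for any library, so the p-values speak only of the spread among the 6 libraries, which may be technical. The labels mention no sorting of transfected cells, so the libraries describe whole transfected regions.

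The authors deposited a single table of fold changes, which does not state which group is the numerator. The libraries of the numerator are therefore called the positive side and those of the denominator the negative side. Which of them carries the variant is not known from the table. A negative log2 fold change means fewer reads on the positive side. Reads per library were recovered from the deposited means, as whole numbers, for all 52 genes and for 12662 of the 13932 genes whose mean reached 10. Those 12662 genes hold 9032544 to 11893469 reads per library and 44.7% of the summed means. Normalised reads are these reads divided by the size factor of the library (0.85 to 1.11). Numbers 1 to 3 order the libraries of a side from the largest to the smallest size factor, and no library was matched to a label. The cortical genes Neurod6 and Emx1 were present, with mean normalised counts of 20122 and 2159 in the authors' deposited table.

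Replication begins with licensing in late mitosis and G1, when the origin recognition complex, CDC6 and CDT1 load rings of MCM2 to MCM7 onto origins. In S phase CDC45 and the GINS complex join the ring to form the active helicase, and polymerases alpha, delta and epsilon copy the strands behind it. Cyclin D with CDK4 or CDK6 phosphorylates RB, which releases E2F factors, and many genes of this machinery are textbook E2F targets. In the embryonic cortex, dividing progenitors near the ventricle carry these transcripts and newborn neurons have left the cycle.

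None of the 52 genes passed the threshold of 0.05 on the adjusted p in the authors' deposited table, where 0.136% of 18446 genes passed in either direction. Of the 52 log2 fold changes in the authors' deposited table, 48 were negative (92.3%), with a median of −0.11 and a range from −0.41 for Orc1 to 0.21 for Ccne1. Over all 18446 genes 51.2% were negative with a median of −0.0044, and the 12019 genes whose mean reached 50 or more had a share of 53.8% and a median of −0.0089. The genes of the list share libraries and vary together, so the 48 signs are not 48 separate observations. In bulk tissue, fewer replicating cells and less of these RNAs per cell cannot be told apart.

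The unadjusted p was under 0.05 for 5 of the 52 genes (9.62%), all with a negative log2 fold change: Rrm2, Cdc6, Uhrf1, Pole and Cdt1. Of all genes in the authors' deposited table, 1.19% had such a p with a negative sign and 2.77% with a positive sign, and no member was in the second class. Among the 12019 genes whose mean reached 50 or more, 190 had such a p with a negative sign and 328 with a positive sign. The smallest adjusted p values from the authors' DESeq2 run were 0.739 for Rrm2, 0.958 for Cdc6 and 0.985 for Uhrf1, and the other 49 were 1 after rounding. A refit of the recovered reads with limma voom, tested over 12662 genes, also called 0 of the 52 genes, with a smallest adjusted p of 0.969. That fit called 0% of all genes, and 7 of the 52 genes had an unadjusted p under 0.05, all with a negative sign. Gmnn and Gins1 were the genes added to the 5.

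The 95% intervals of the deposited folds describe the difference between the sides, given the spread among these 6 libraries. They set no limit on a change within the transfected cells. Of the 52 intervals, 47 included 0, and 47 lay inside a 1.5-fold change in either direction. Only the interval of Orc1, the least abundant member, reached past a 2-fold change (−1.06 to 0.24 on the log2 scale), and 51 of 52 lay inside it.

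**Figure D1:**
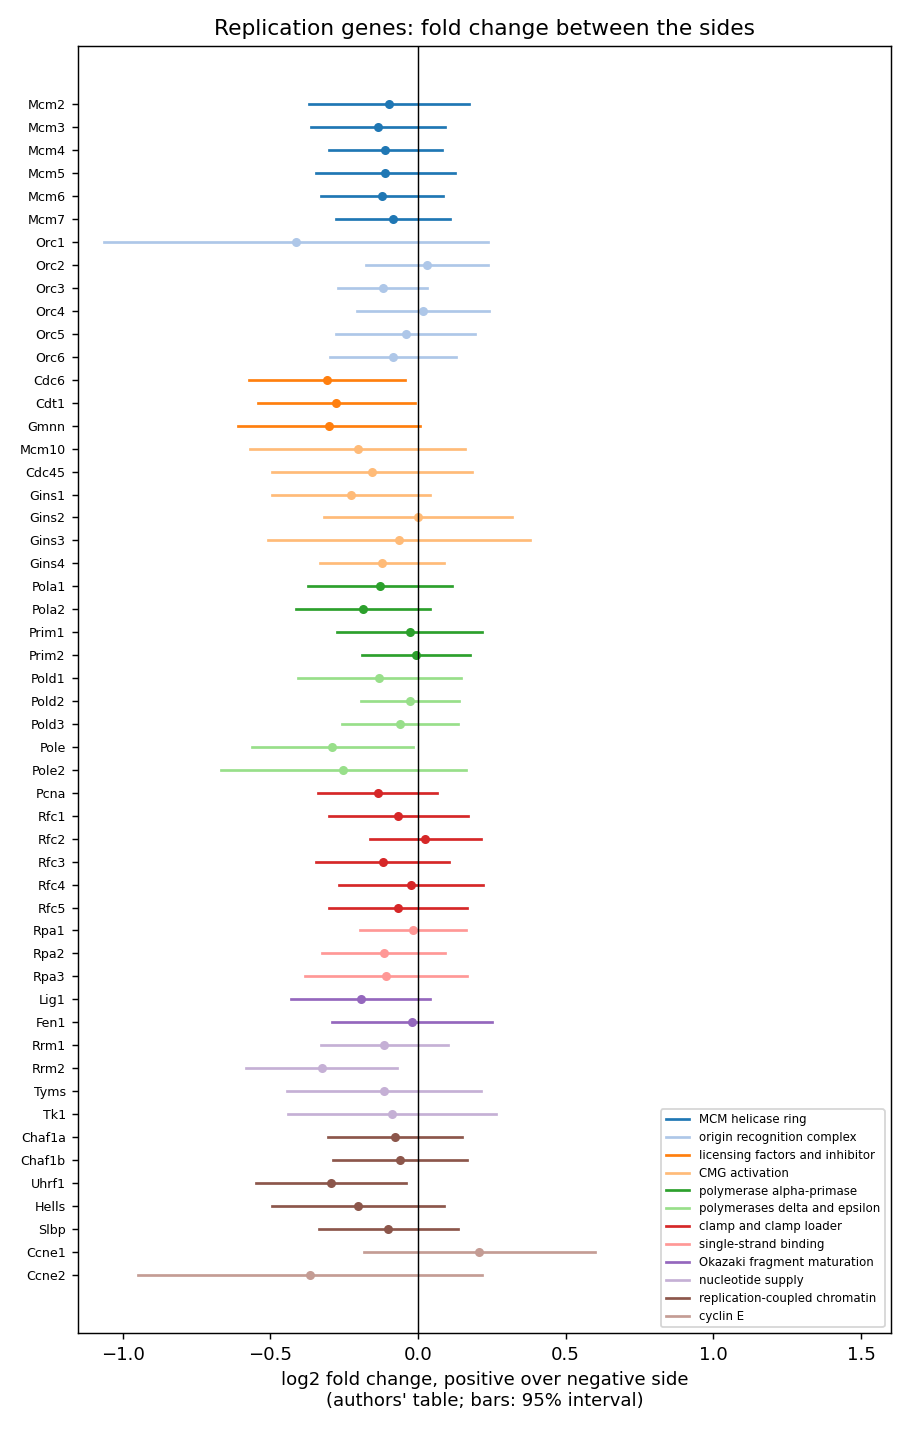
The log2 fold change of each of the 52 genes in the authors' table (horizontal axis, positive over negative side; points) with its 95% interval (bars), grouped and coloured by role. Points of 48 genes lie left of 0 and 47 of the bars cross 0, with the widest bars at Orc1 and Ccne2.

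The licensing factors had the most negative median of the 12 roles, −0.30 over 3 genes. Cdc6, the ATPase that joins the origin recognition complex to load MCM, had 283, 277 and 281 normalised reads in positive libraries 1 to 3 and 356, 360.0 and 324 in negative libraries 1 to 3. The positive libraries were nearly level, and every negative library was above them. Its means were 280.3 ± 3.03 over the positive libraries and 346 ± 19.9 over the negative ones (SD, n = 3 each). The authors' deposited table gave Cdc6 a log2 fold change of −0.31 (SE 0.13, p = 0.0219).

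Cdt1, the partner of CDC6 in MCM loading, had 582, 479 and 641 normalised reads in positive libraries 1 to 3 and 722, 642 and 696 in negative libraries 1 to 3. The sides did not overlap, but positive library 3 and negative library 2 differed by less than 1 normalised read. Cdt1 had a log2 fold change of −0.28 (SE 0.14, p = 0.0417) by the authors' deposited table. The gene overlaps Gm20388 in the annotation, so its reads could be shared. Gmnn encodes geminin, which binds CDT1 and blocks relicensing, and it had 256, 233 and 299 normalised reads in positive libraries 1 to 3 and 341, 328 and 298 in negative libraries 1 to 3. Positive library 3 lay just above negative library 3, so the sides overlapped. Gmnn stood at −0.30 (SE 0.16, p = 0.0553) on the log2 fold scale of the authors' deposited table. The loader CDT1 and its inhibitor thus had log2 fold changes of the same sign and similar size.

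Promoters are shown for 6 of the 8 genes with an unadjusted p under 0.05 or with sides that did not overlap, because many replication genes carry E2F sites. The windows run from 250 bases before to 50 after the RefSeq start, on GRCm38.p6. Capitals mark the searched words, which were TTTGGCGC, TTTCCCGC, TTTGCCGC or TTTCGCGC for E2F and CCAAT for the NF-Y box, on either strand. No marked words overlap in these windows. Cdc6 lies at chr11:98907901-98908200, plus strand. Cdt1 lies at chr8:122567765-122568064, plus strand. Orc3 lies at chr4:34614893-34615192, minus strand. Pola2 lies at chr19:5964157-5964456, minus strand. The second of the Uhrf1 starts lies at chr17:56304063-56304362, plus strand. Rrm2 lies at chr12:24708004-24708303, plus strand.
Cdc6: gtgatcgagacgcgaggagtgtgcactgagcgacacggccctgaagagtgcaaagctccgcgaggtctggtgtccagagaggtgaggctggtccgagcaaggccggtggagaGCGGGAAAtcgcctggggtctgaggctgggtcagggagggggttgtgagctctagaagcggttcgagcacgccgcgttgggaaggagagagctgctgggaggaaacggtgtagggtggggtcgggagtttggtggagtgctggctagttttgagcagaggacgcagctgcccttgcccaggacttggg
Cdt1: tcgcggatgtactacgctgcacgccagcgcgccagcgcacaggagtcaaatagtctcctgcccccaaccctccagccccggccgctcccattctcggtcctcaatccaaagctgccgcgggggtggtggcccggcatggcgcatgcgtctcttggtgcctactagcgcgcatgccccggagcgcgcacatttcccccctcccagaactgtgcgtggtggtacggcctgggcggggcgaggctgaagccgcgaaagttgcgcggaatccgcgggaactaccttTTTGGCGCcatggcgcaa
Orc3: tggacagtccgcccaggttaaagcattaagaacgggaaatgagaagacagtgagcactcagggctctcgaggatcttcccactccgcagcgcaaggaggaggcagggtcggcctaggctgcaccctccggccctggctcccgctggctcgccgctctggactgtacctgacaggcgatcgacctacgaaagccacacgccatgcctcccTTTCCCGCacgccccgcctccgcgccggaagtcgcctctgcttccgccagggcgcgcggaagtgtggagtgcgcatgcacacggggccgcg
Pola2: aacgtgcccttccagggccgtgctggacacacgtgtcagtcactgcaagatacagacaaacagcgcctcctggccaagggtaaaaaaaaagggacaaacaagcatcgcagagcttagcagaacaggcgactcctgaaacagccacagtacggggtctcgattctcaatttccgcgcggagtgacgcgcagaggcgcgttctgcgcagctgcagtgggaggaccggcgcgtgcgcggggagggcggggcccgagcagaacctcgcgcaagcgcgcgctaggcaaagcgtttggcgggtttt
Uhrf1: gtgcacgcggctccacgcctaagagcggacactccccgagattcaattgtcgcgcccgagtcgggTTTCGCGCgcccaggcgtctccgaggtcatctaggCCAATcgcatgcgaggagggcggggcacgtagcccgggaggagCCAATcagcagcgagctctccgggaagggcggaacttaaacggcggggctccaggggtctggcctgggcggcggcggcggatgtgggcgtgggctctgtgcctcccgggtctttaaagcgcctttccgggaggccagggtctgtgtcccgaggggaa
Rrm2: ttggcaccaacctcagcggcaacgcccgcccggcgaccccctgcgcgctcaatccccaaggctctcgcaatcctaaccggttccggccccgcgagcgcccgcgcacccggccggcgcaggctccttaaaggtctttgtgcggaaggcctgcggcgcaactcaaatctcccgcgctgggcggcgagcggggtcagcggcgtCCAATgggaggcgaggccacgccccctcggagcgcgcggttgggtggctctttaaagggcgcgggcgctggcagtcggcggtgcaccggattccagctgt

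The windows of Cdc6, Cdt1, Orc3 and Uhrf1 each hold 1 E2F word, that of Uhrf1 also holds 2 CCAAT boxes, and that of Rrm2 holds 1 CCAAT box and no E2F word. The window of Pola2 holds none of these words. The other Uhrf1 window, which is not printed, holds 3 CCAAT boxes and no E2F word. In Cdt1 the word lies after the start, and in Cdc6, Orc3 and Uhrf1 before it. RefSeq windows were found for 43 of the 52 genes, 52 windows in all. An E2F word was in 17 of these 52 windows (32.7%), against 744 of all 32851 promoter windows (2.26%). The 17 genes with such a window were Cdc6, Cdt1, Gins3, Hells, Lig1, Mcm3, Mcm5, Mcm6, Mcm7, Orc1, Orc3, Pola1, Pold1, Pold3, Pole2, Rfc3 and Uhrf1. CCAAT boxes were in 55.8% of the members' windows and in 37.4% of all. The word TTTGAA or TTCGAA, the core of the cell cycle homology region of G2/M promoters, was in 7 of the members' 52 windows and in 19.2% of all.

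The 17 genes with an E2F word were all negative in the authors' deposited table, with a median log2 fold change of −0.13. The 26 genes with a window but no such word were negative in 23 cases, with a median of −0.081. For CCAAT boxes the medians were −0.109 over 26 genes with a box and −0.114 over 17 genes without. For TTTGAA or TTCGAA they were −0.086 over 7 genes with the word and −0.114 over 36 genes without. The differences between these medians were not tested, and a word in a window does not show that a factor binds there.

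The origin recognition complex, the ATPase that marks origins, was the most mixed of the larger roles, with 4 of 6 genes negative and a median log2 fold change of −0.062. Orc1, the subunit whose protein level follows the cell cycle in human cells, had 54.2, 38.2 and 48.7 normalised reads in positive libraries 1 to 3 and 50.3, 77.8 and 60.0 in negative libraries 1 to 3. It was lowest in positive library 2 and highest in negative library 2, and the sides overlapped. Orc1 had a log2 fold change of −0.41 (SE 0.33, p = 0.213) by the authors' deposited table, with the widest interval of the list.

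Orc3 had 1527, 1522 and 1585 normalised reads in positive libraries 1 to 3 and 1731, 1620.3 and 1683 in negative libraries 1 to 3. All 3 negative libraries were above all 3 positive ones, and the spread between libraries was small, with a highest-to-lowest ratio of 1.14. For Orc3 the authors' deposited table gave a log2 fold change of −0.12 (SE 0.077, p = 0.119). Orc4 had 482, 509 and 459 normalised reads in positive libraries 1 to 3 and 489.7, 472 and 471 in negative libraries 1 to 3, which places the sides on top of each other. Orc4 had a log2 fold change of 0.017 (SE 0.11, p = 0.881) by the authors' deposited table. Of the others, Orc2 (0.032) and Orc5 (−0.042) had log2 fold changes near 0 in the authors' deposited table, and Orc6 stood at −0.083.

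The 6 MCM genes encode the ring that unwinds DNA, and they differed little from each other. All were negative in the authors' deposited table, from −0.13 for Mcm3 to −0.086 for Mcm7, with a median log2 fold change of −0.11. Mcm3 had 1866, 1806 and 2215 normalised reads in positive libraries 1 to 3 and 2319, 2249 and 1889 in negative libraries 1 to 3. Mcm7 had 4148, 3619 and 4591 normalised reads in positive libraries 1 to 3 and 4503, 4438 and 4169.6 in negative libraries 1 to 3. Mcm2 had 2487, 2247 and 2981 normalised reads in positive libraries 1 to 3 and 3068, 2920.1 and 2264 in negative libraries 1 to 3. In each of these genes positive library 2 was the lowest and the sides overlapped, and positive library 2 was the lowest library for 6 of the 6 MCM genes. The authors' deposited table listed log2 fold changes of −0.13 (SE 0.12, p = 0.246) for Mcm3, −0.086 (SE 0.099, p = 0.385) for Mcm7 and −0.098 (SE 0.14, p = 0.48) for Mcm2. Mcm7 overlaps Cops6 and Ap4m1 in the annotation.

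The genes that turn the loaded ring into the active helicase were negative in 6 of 6 cases, with a median log2 fold change of −0.14 by the authors' deposited table. Gins1, a subunit of the GINS complex, had 305, 277 and 307 normalised reads in positive libraries 1 to 3 and 332, 368 and 341 in negative libraries 1 to 3. Its sides did not overlap. For Gins1 the authors' deposited table gave a log2 fold change of −0.23 (SE 0.14, p = 0.0977). Gins2, another subunit of that complex, had 268, 262 and 311 normalised reads in positive libraries 1 to 3 and 286, 311 and 242 in negative libraries 1 to 3. Its side means were nearly equal, 280.5 ± 26.4 over the positive libraries and 279.7 ± 34.7 over the negative ones (SD, n = 3 each), so its negative sign carries no size. Gins2 stood at −0.00022 (SE 0.16, p = 0.999) on the log2 fold scale of the authors' deposited table.

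Mcm10, which helps the helicase start, had 297, 293 and 446 normalised reads in positive libraries 1 to 3 and 391, 418 and 382 in negative libraries 1 to 3. Positive library 3 was the highest of all 6, while positive libraries 1 and 2 were the lowest. Gins3 (−0.065), Gins4 (−0.12), Cdc45 (−0.15) and Mcm10 (−0.20) had negative log2 fold changes in the authors' deposited table, none with an unadjusted p under 0.05.

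Polymerase alpha with primase lays down the primers, and all 4 of its genes had a negative sign in the authors' deposited table, with a median log2 fold change of −0.079. Pola2, the accessory subunit, had 578, 487 and 566 normalised reads in positive libraries 1 to 3 and 608, 631 and 618 in negative libraries 1 to 3. The sides did not overlap, and positive library 2 lay well below the other libraries. Pola2 had a log2 fold change of −0.19 (SE 0.12, p = 0.106) by the authors' deposited table. Prim2, the large primase subunit, had 753, 773 and 769 normalised reads in positive libraries 1 to 3 and 789.8, 746 and 768 in negative libraries 1 to 3. It was the flattest gene of the list, with a highest-to-lowest ratio of 1.06. Its log2 fold change was −0.0063 (SE 0.093, p = 0.946) in the authors' deposited table, while Pola1 was at −0.13 and Prim1 at −0.028.

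The polymerases that extend the strands were negative in 5 of 5 cases, with a median log2 fold change of −0.13 by the authors' deposited table. Pole, the catalytic subunit of polymerase epsilon, had 513, 580.3 and 655 normalised reads in positive libraries 1 to 3 and 806, 656 and 672 in negative libraries 1 to 3. The sides did not overlap, although positive library 3 and negative library 2 differed by less than 1 normalised read. The authors' deposited table gave Pole a log2 fold change of −0.29 (SE 0.14, p = 0.0365). Pold2, an accessory subunit of polymerase delta, had 1159, 1098 and 1154 normalised reads in positive libraries 1 to 3 and 1159, 1194 and 1120.4 in negative libraries 1 to 3. Its libraries were nearly level across both sides. Pold2 had a log2 fold change of −0.027 (SE 0.084, p = 0.747) by the authors' deposited table. Pole2 (−0.25), Pold1 (−0.13) and Pold3 (−0.061) completed the group on the same scale.

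Pcna encodes the sliding clamp that holds polymerases on DNA, and it had 3258, 2883 and 3556 normalised reads in positive libraries 1 to 3 and 3775, 3655 and 3225 in negative libraries 1 to 3. Positive library 3 and negative library 3 crossed, so the sides overlapped. The authors' deposited table gave Pcna a log2 fold change of −0.14 (SE 0.10, p = 0.185). The clamp loader genes had log2 fold changes between −0.12 for Rfc3 and 0.025 for Rfc2 in the authors' deposited table. Rfc4 had 580.2, 483 and 557 normalised reads in positive libraries 1 to 3 and 576, 562 and 509.6 in negative libraries 1 to 3, with sides that overlapped. The log2 fold change of Rfc4 was −0.024 (SE 0.12, p = 0.845) in the authors' deposited table. Rfc4 overlaps Eif4a2 in the annotation.

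The RPA genes encode the trimer that coats single-stranded DNA. Rpa2 had 861, 737 and 823 normalised reads in positive libraries 1 to 3 and 879, 919.6 and 824 in negative libraries 1 to 3, and Rpa1 had 2139, 1973 and 2174 normalised reads in positive libraries 1 to 3 and 2209.5, 2224 and 1921 in negative libraries 1 to 3. Both overlapped between the sides, and negative library 2 was the highest for all 3 RPA genes. By the authors' deposited table, log2 fold changes were −0.12 (SE 0.11, p = 0.278) for Rpa2, −0.016 (SE 0.092, p = 0.858) for Rpa1 and −0.11 for Rpa3. Lig1, the ligase that seals Okazaki fragments, had 1595, 1523 and 1996 normalised reads in positive libraries 1 to 3 and 2039, 2011 and 1795 in negative libraries 1 to 3. Fen1, the nuclease that trims their flaps, had 1167, 975 and 1283 normalised reads in positive libraries 1 to 3 and 1196, 1286 and 987 in negative libraries 1 to 3. Positive library 2 was the lowest for both genes and their sides overlapped. The authors' deposited table listed log2 fold changes of −0.19 (SE 0.12, p = 0.105) for Lig1 and −0.020 (SE 0.14, p = 0.883) for Fen1. Lig1 overlaps Zswim9 and Fen1 overlaps Tmem258 in the annotation.

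Rrm2, the regulated subunit of ribonucleotide reductase, had the smallest p of the 52 genes. It had 2482, 2141 and 2982 normalised reads in positive libraries 1 to 3 and 3489.9, 3219.6 and 2819.8 in negative libraries 1 to 3. Positive library 3 was above negative library 3, so the sides overlapped, and positive library 2 was the lowest. The means were 2535 ± 423 over the positive libraries and 3176 ± 337 over the negative ones (SD, n = 3 each). The authors' deposited table gave Rrm2 a log2 fold change of −0.33 (SE 0.13, p = 0.0127). An exact two-sided permutation test over the 6 libraries gave p = 0.2 for Rrm2.

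Rrm1, the large subunit of the same enzyme, had 3576, 3293 and 4107 normalised reads in positive libraries 1 to 3 and 4369.6, 3929 and 3578 in negative libraries 1 to 3. Its sides overlapped too, and its log2 fold change was −0.11 in the authors' deposited table. Tyms, which makes thymidylate, had a log2 fold change of −0.11 there. Tk1, which salvages thymidine, had 535, 410.0 and 613 normalised reads in positive libraries 1 to 3 and 627, 573 and 453 in negative libraries 1 to 3. The authors' deposited table listed Tk1 with a log2 fold change of −0.088 (SE 0.18, p = 0.623). All 4 genes of nucleotide supply were lowest in positive library 2 and highest in negative library 1.

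Uhrf1 reads hemimethylated DNA behind the fork and brings in the maintenance methyltransferase. It had 2101, 1844 and 2464 normalised reads in positive libraries 1 to 3 and 2941, 2631 and 2287 in negative libraries 1 to 3, the same order of libraries as in Rrm2. The sides overlapped through positive library 3 and negative library 3. Uhrf1 had a log2 fold change of −0.30 (SE 0.13, p = 0.0231) by the authors' deposited table. Chaf1b, a subunit of the histone chaperone CAF-1, had 691, 581 and 687 normalised reads in positive libraries 1 to 3 and 648, 708 and 686 in negative libraries 1 to 3, and its sides overlapped. Its log2 fold change was −0.060 (SE 0.12, p = 0.603) in the authors' deposited table. Hells, a chromatin remodeller (−0.20), Slbp, which binds histone mRNA (−0.10), and Chaf1a (−0.078) were also negative there.

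The E-type cyclins activate CDK2 at the start of S phase, and the pair had opposite signs. Ccne1 had 221, 159.5 and 182 normalised reads in positive libraries 1 to 3 and 163, 177 and 148 in negative libraries 1 to 3. It was highest in positive library 1 and the sides overlapped. Ccne2 had 98.5, 84.2 and 136 normalised reads in positive libraries 1 to 3 and 171, 146 and 91.8 in negative libraries 1 to 3. Its values spread 2.03-fold from the lowest to the highest library. Negative library 3 was close to positive library 2, the lowest. By the authors' deposited table, log2 fold changes were 0.21 (SE 0.20, p = 0.297) for Ccne1 and −0.37 (SE 0.30, p = 0.218) for Ccne2, and their difference was not tested. Ccne2 overlaps Ints8 in the annotation.

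**Figure D2:**
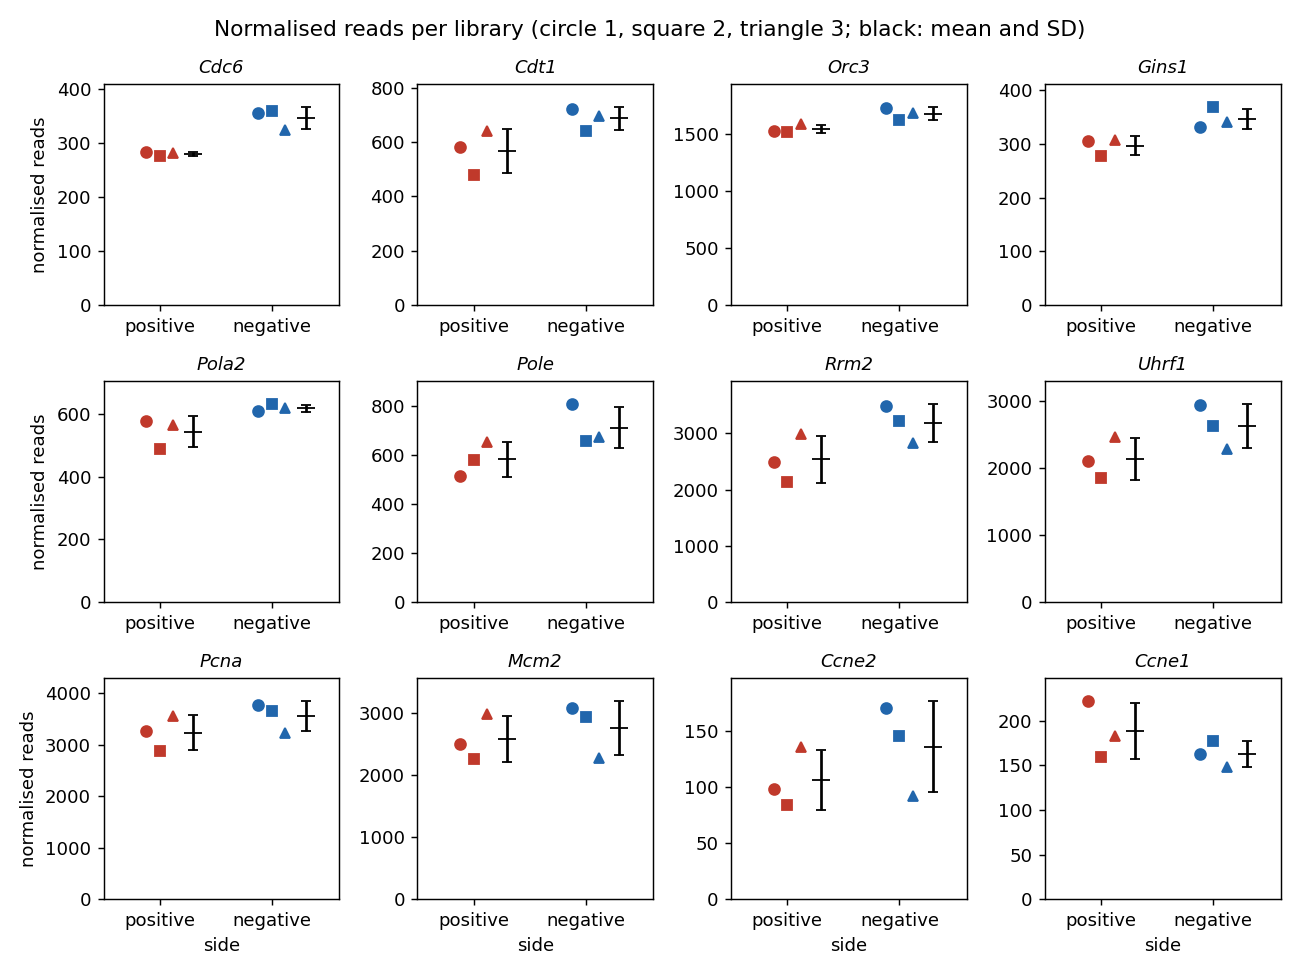
Normalised reads of 12 of the genes (vertical axes from 0) in each library of the positive side (red) and the negative side (blue), where circle, square and triangle are libraries 1, 2 and 3 and black marks give mean and SD over 3 libraries. The sides do not overlap in the first 6 panels, and they overlap in Rrm2, Uhrf1, Pcna, Mcm2, Ccne2 and Ccne1.

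The sides did not overlap in 6 of the 52 genes (11.5%), all with the negative side higher: Orc3, Cdc6, Cdt1, Gins1, Pola2 and Pole. Over the 12662 recovered genes 4.29% were of this kind, and 5.16% had the positive side higher, which was seen in 0 of the 52. In each of the 6 genes the exact two-sided permutation test over libraries gave p = 0.10, the smallest that 3 against 3 libraries allow. Any gene whose sides do not overlap gets this p, so the test adds nothing to the count. The count depended on single libraries. It was 21 of 52 without positive library 3 (10.6% of recovered genes) and 26 of 52 without negative library 3 (10.1%). Without positive library 1, positive library 2, negative library 1 and negative library 2 it was 9, 6, 8 and 6, against 7.96%, 10.4%, 7.28% and 9.82% of recovered genes.

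The libraries within a side also differed from each other. The median over the 52 genes of the log2 deviation from the gene's mean was −0.059, −0.19 and 0.050 in positive libraries 1 to 3 and 0.092, 0.12 and −0.056 in negative libraries 1 to 3. Summed over the 52 genes, positive libraries 1 to 3 held 54874, 49953 and 60554 normalised reads and negative libraries 1 to 3 held 63367, 61574 and 54788. Positive library 2 stood lowest and negative libraries 1 and 2 highest. The SD of the library medians within the sides was 0.108, close to the deposited median fold of −0.11 in size. This SD is a spread of single libraries and the fold compares sides of 3, so the SD is not the error of the fold. Positive library 2 was the lowest library for 36 of the 52 genes (69.2%), against 24.1% of recovered genes with a mean of at least 50. Negative library 1 or 2 was the highest for 39 of the 52 (75%), against 27.9%.

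The median log2 ratio of the 52 genes moved with these libraries. It was −0.054 with 38 negative genes without positive library 2, and −0.073 with 42 negative genes without negative library 1. Without negative library 2 it was −0.081 with 44 negative genes. It was −0.18 without positive library 3 and −0.18 without negative library 3, with 47 and 50 negative genes. The values without positive library 2, positive library 3, negative library 1 and negative library 3 differ by over 1.5 times from the deposited median of −0.11. Cdc6 kept a log2 ratio between −0.35 and −0.28 whichever library was left out. Gins1 (−0.26 to −0.18) and Orc3 (−0.14 to −0.097) also kept their sign, so this was not particular to Cdc6.

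**Figure D3:**
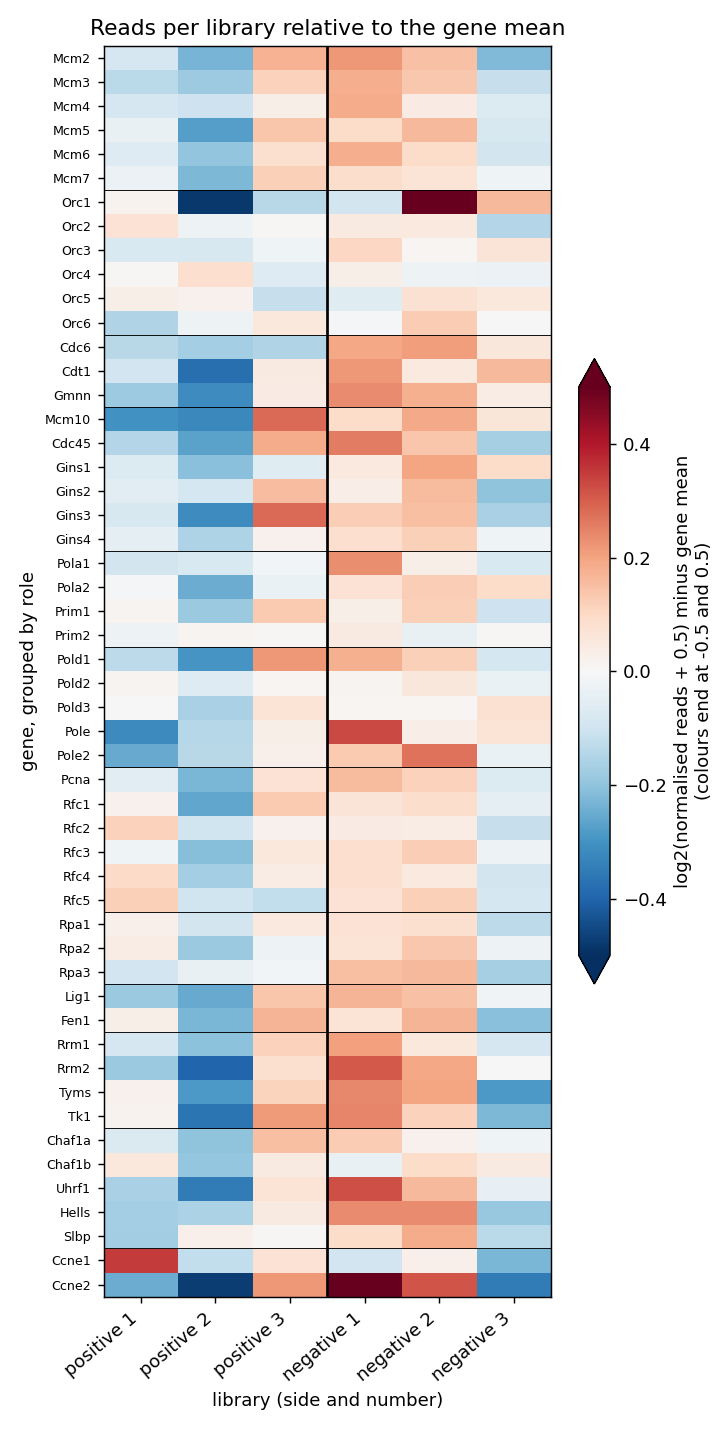
The log2(normalised reads + 0.5) of each of the 52 genes in each library, minus the mean of the gene over the 6 libraries (colour, blue below and red above, ending at −0.5 and 0.5), with rows grouped by role and a line between the sides. Positive library 2 is mostly blue and negative libraries 1 and 2 are mostly red, while positive library 3 is red and negative library 3 blue for many genes.

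Other lists also varied across the libraries. The 22 G2/M and mitosis genes, which mark a later part of the cycle, were all negative in the authors' deposited table, with a median log2 fold change of −0.12. Over the libraries their median log2 deviation was lowest in positive library 2 (−0.30) and highest in negative library 1 (0.22). Positive library 2 was likewise the lowest for the replication genes, whose highest median was in negative library 2. The unadjusted p was under 0.05 for Top2a and Cenpf, with log2 fold changes of −0.26 (SE 0.13, p = 0.0381) and −0.28 (SE 0.13, p = 0.0289) in the authors' deposited table, and none of the 22 was called.

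Markers of neurons differed among themselves across the libraries. Of 11 pan-neuronal genes, 7 were negative in the authors' deposited table with a median log2 fold change of −0.059, and reads were recovered for 5. Tubb3, Dcx, Map2, Stmn2, Gap43 and Elavl3 had no recovered reads. Their means were larger than those of the 5, and their log2 fold changes ran from −0.14 to −0.055. Summed over these 5, positive libraries 1 to 3 held 8881, 14353 and 8315 normalised reads and negative libraries 1 to 3 held 9086, 9394 and 10661, so that positive library 2 was the highest. The neurofilament genes Nefl and Nefm had 3451 and 2678 normalised reads there, against 420.3 to 1631 and 593 to 1226 in the other libraries. Rbfox3, a marker of neuronal nuclei, was in contrast lowest in positive library 2, with 1839 normalised reads against 1932 to 2332. The median log2 deviation of the 5 genes was 0.29 in positive library 2 and 0.21 in negative library 3, where the replication genes had medians of −0.19 and −0.056. The part of neurons in the result was not tested.

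Most progenitor markers had the opposite sign to the replication genes. Only 3 of 11 radial glia genes were negative in the authors' deposited table, with a median log2 fold change of 0.070, and 2 of 11 intermediate progenitor genes, with a median of 0.21. Sox2, the radial glia gene with the smallest p, was among the negative ones, and it had 3055, 3115 and 3086 normalised reads in positive libraries 1 to 3 and 4382, 3431 and 3819 in negative libraries 1 to 3. Its sides did not overlap, with the negative side higher as in Cdc6. The authors' deposited table gave Sox2 a log2 fold change of −0.33 (SE 0.099, p = 0.00087), with an adjusted p of 0.197 from the authors' DESeq2 run. Summed over the 8 recovered radial glia genes, positive libraries 1 to 3 held 11493, 11656 and 11812 normalised reads and negative libraries 1 to 3 held 13140, 12244 and 11203. These sums overlap through negative library 3 alone, and Sox2 had the largest mean of the 8 genes. Vim, Nes and Fabp7 had larger means but no recovered reads. They stood at 0.19, 0.14 and −0.16 on the log2 fold scale of the authors' deposited table. Hopx, also a radial glia gene, went the other way from Sox2. It had 254, 174 and 206 normalised reads in positive libraries 1 to 3. In negative libraries 1 to 3 it had 108, 162 and 144, so its sides did not overlap either. The DESeq2 run of the authors placed Hopx at 0.62 in log2 fold (SE 0.23, p = 0.0076, adjusted p = 0.551). Summed over the 9 recovered intermediate progenitor genes, positive libraries 1 to 3 held 15755, 14459 and 17597 normalised reads and negative libraries 1 to 3 held 14044, 16613 and 11177. The intermediate progenitor sums also overlap between the sides, with negative library 3 the lowest.

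Markers of other cells separated the libraries far more. All 18 ventral progenitor and interneuron genes were negative in the authors' deposited table, with a median log2 fold change of −1.42 and 2 called. Summed over this list, positive libraries 1 to 3 held 7480, 7293 and 4663 normalised reads and negative libraries 1 to 3 held 16362, 8033 and 15156. All 12 meningeal and fibroblast genes were positive, with a median of 3.05 and 3 called, and their sums were 7797, 10707 and 755 in positive libraries 1 to 3 and 853, 646 and 964 in negative libraries 1 to 3. Positive libraries 1 and 2 therefore carried most of the meningeal reads, and the replication medians there were −0.059 and −0.19. In the 4 libraries with few meningeal reads they were 0.050 in positive library 3 and 0.092, 0.12 and −0.056 in negative libraries 1 to 3. Isl1, Lhx8 and Six3 of the ventral list were at 0 reads in at least 1 library, and no gene of the meningeal list was. The 12 microglia and macrophage genes had sums of 4419, 4958 and 1632 in positive libraries 1 to 3 and 1425, 2466 and 2203 in negative libraries 1 to 3. Without positive library 2, which held the most meningeal and macrophage reads, the median log2 ratio of the replication genes was −0.054 with 38 negative genes. Without positive library 1 it was −0.10 with 47 negative genes, and the part of these cells in the result was not tested.

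**Figure D4:**
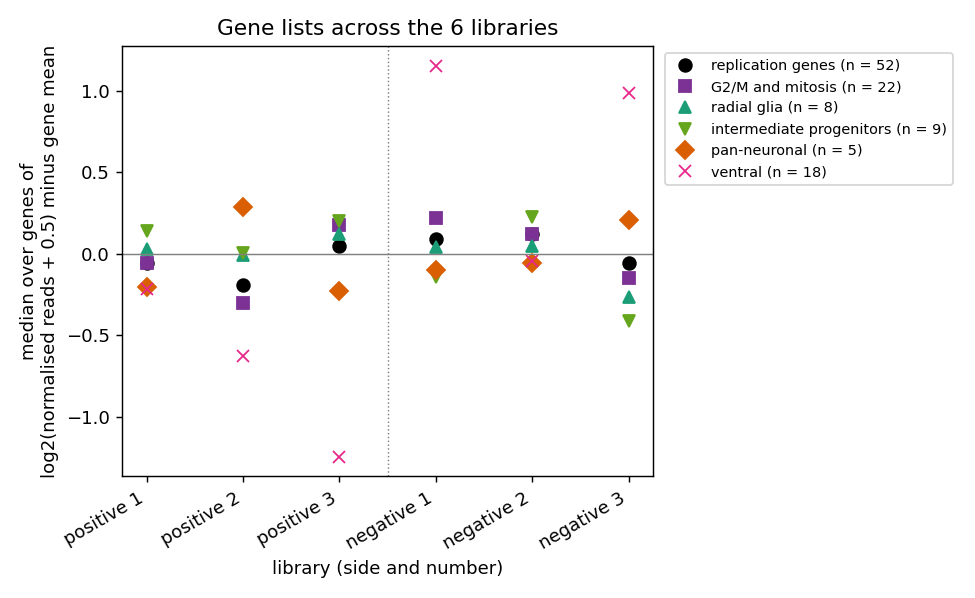
The median over the genes of each list (symbols, number of recovered genes in the key) of log2(normalised reads + 0.5) minus the gene mean, for each library (horizontal axis). The replication genes and the G2/M genes have medians of the same sign in every library, with −0.19 and −0.30 in positive library 2. The 5 recovered pan-neuronal genes, which leave out the most abundant ones of that list, stand at 0.29 there.

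Neighbouring pathways gave smaller medians with the same sign. Of 30 other replication genes, such as fork protection and clamp loader variants, 23 were negative in the authors' deposited table, with a median log2 fold change of −0.080, and 0 had an unadjusted p under 0.05. Of 19 other genes of nucleotide supply, 14 were negative, with a median of −0.027. Of 16 S-phase kinases, cyclins and checkpoint genes, 12 were negative, with a median of −0.029. Of 12 other chromatin genes, 11 were negative with a median of −0.064, and none of these lists held a called gene.

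Cdca7, which works with HELLS in chromatin remodelling, was the gene of these 4 lists with an unadjusted p under 0.05. It had 1745, 1267 and 1579 normalised reads in positive libraries 1 to 3 and 2303, 1919 and 1992 in negative libraries 1 to 3. All negative libraries were above all positive ones, and positive library 2 was the lowest. Cdca7 had a log2 fold change of −0.44 (SE 0.13, p = 0.000858) by the authors' deposited table, and the adjusted p of the authors' DESeq2 run was 0.197. Hells itself was at −0.20 there.

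The genes also differed in level. Per kilobase of annotated exon, the mean normalised reads were highest for Pcna (1413), Rrm2 (1031) and Mcm7 (959), and lowest for Orc1 (15.8) and Ccne2 (34.7). The 6 MCM genes, whose proteins form one ring, lay between 383 for Mcm2 and 959 for Mcm7 on this scale. Among the origin recognition genes Orc6 (280.2) and Orc3 (265) stood highest. The exon length is the union over all annotated transcripts, so a gene with long minor transcripts reads low.

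The spread between libraries also varied among the genes. The ratio of the highest to the lowest library had a median of 1.30 over the 52 genes, against 1.25 over recovered genes whose mean reached 50. It was largest for Orc1 (2.04), Ccne2 (2.03) and Rrm2 (1.63), and smallest for Prim2 (1.06), Pold2 (1.09) and Orc4 (1.11). In the annotation 16 of the 52 genes overlap another protein-coding gene, and whether the counting used strand was not stated, so reads of such pairs could be shared.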

How the data were processed

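RNA was measured in 6 libraries, 3 for each labelled group. Per the submitters' processing notes, the reads were handled with cutadapt, featureCounts and DESeq2 on the build mm10. Versions, aligner, annotation and strand setting were not given in those notes or labels. Per the file headers, the authors deposited for each gene a base mean (a signal, the mean count divided by size factors), a log2 fold change with its standard error on the log2 scale, a Wald score, a p-value and an adjusted p-value. The table has 0 columns of values per sample.

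The authors' folds, p-values and adjusted p-values (DESeq2, adjusted over all 18446 genes by Benjamini-Hochberg) are the main values, and a gene was called when the adjusted p was under 0.05. Reads per library were computed from the deposited values. The 739 genes with a single read in 1 library give the worth of a read in each library. For 12666 genes, a search over a limited range around the mean listed all sets of 6 whole numbers that match the deposited mean and, in a negative binomial fit, the deposited log2 fold change within 1e-11. Exactly 1 set was found for 12664 genes, none for 1 and more than 1 for 1. When 200 means were shifted, 0 had any set. Means of 10 to 4000 were searched, and for the lists all means up to 6000, so highly expressed genes are under-represented among recovered genes. limma 3.58.1 in R 4.3.3 refitted these reads with voom, after both programs had been tested on simulated data. Exact permutation tests used log2(normalised reads + 0.5). Numba 0.67.0, numpy 2.4.6 and pandas 2.3.3 under Python 3.11.15 served for other steps.

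Full values are given for each member with an unadjusted p under 0.05 and for the largest and smallest absolute fold of each role, and from each further pathway list for genes with an unadjusted p under 0.05, at most 4. Genes such as Mcm2, Gmnn, Sox2 and Hopx were shown in full after their values were seen. Others were shown in part after their values were seen. These include Mcm10 and Rrm1 (reads per library and log2 fold change) and Nefl, Nefm and Rbfox3 (reads only). They also include Eomes and Neurog2 (log2 fold change, SE and p). The members, lists and rules were chosen with earlier results of these data known. Exon lengths and overlaps come from GENCODE M21, and promoters from RefSeq on GRCm38.p6.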

Additional observations from a re-analysis of the deposited data

How the results depend on the processing

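No member was called with an adjusted p under 0.10, with the adjustment limited to means of at least 10 or 50, or with limma voom under either scaling, and 5 members passed at an unadjusted p under 0.05. The negative count was 45 to 48 under other centring, scaling, the limit of 100 on the mean and voom. No direction of a named gene with an unadjusted p under 0.05 or with sides that did not overlap was reversed. Leaving out each library in turn gave 0 called members with limma voom, 38 to 50 negative members, a median log2 ratio of −0.18 to −0.054, and 6 to 26 members whose sides did not overlap, with 21 without positive library 3 and 26 without negative library 3. Without positive library 3, voom called 120 of all genes and 0 members. It called 1 of all genes without negative library 2 and 0 without each of the other libraries. Where no gene at all was called, the count of 0 members says nothing particular about the members. No paired analysis was possible because the recovered libraries carry no replicate numbers. Voom and the scaling by summed reads were added after seeing the data. With 3 libraries a side, the intervals of Orc1 and Ccne2, members with low reads, were the widest.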
